A study of Oryctolagus cuniculus with 6 samples.

Results

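The comparison described here is that of grafted rabbit skull defects 7 days after surgery with grafted defects 5 days after surgery, 1 array of the 6 in the series for each day. The day 7 group is tissue from parietal bone defects filled with 0.2 g of HPD, named in the series title as human particulated dentin, a ground tooth material used as a bone filler. The day 5 group is the same tissue with the same filling, taken earlier. Unfilled control defects of day 7 and day 5, 1 array each, are set beside them, and the HPD array of day 3 gives the earlier course. All groups came from male New Zealand White rabbits (Oryctolagus cuniculus), 4 months old. The study used 24 of them, each with 4 round holes of 5 mm in the parietal bone, 2 grafted on the right and 2 left empty. RNA came from tissue that had newly grown in the holes. The labels do not say whether tissue or animals were pooled for an array. A series text also mentions blood samples, but each of the 6 samples is labelled as new tissue. Of 23255 features (a named gene, or an unnamed array entry), 18336 (78.8%) had a probe well above background on both HPD arrays, and 8768 of those carry a gene symbol. A level is the log2 signal relative to the 75th percentile of the same array, and a difference is day 7 minus day 5.

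A hole in a skull bone first fills with clot, then with white blood cells that clear it, then with a vascular connective tissue, and bone forms within that tissue when precursor cells turn into osteoblasts. Osteoblasts deposit type I collagen and mineral-binding proteins, and those that become buried in the matrix, the osteocytes, make proteins that govern its mineral. Neutrophils are the first white cells to arrive and are short-lived. Poorly perfused tissue stabilises the transcription factor HIF-1, which raises genes of glycolysis and oxygen sensing.

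The results turn on a few probes of 60 bases, shown here because they measured the bone and the inflammatory or hypoxic ends of the comparison. Positions are those of the array design, on oryCun2. The COL1A1 probe (chr19:37489117-37489176, plus strand) reads the chain most abundant in bone collagen. The IBSP probe (chr15:62360093-62360152, minus strand) covers the codons of the cell-binding Arg-Gly-Asp motif, in capitals. The DMP1 probe (chr15:62507160-62507219, minus strand) and the OMD probe (chr1:70282499-70282558, minus strand) read an osteocyte and an osteoblast matrix protein. The S100A9 probe is the brightest for that neutrophil gene, and its sequence spans 1342 bases of the minus strand (chr13:39032371-39033712), so it crosses a splice junction. The EGLN3 probe spans 884 bases of the minus strand (chr17:53707157-53708040) and ends in the stop codon, in capitals.
COL1A1: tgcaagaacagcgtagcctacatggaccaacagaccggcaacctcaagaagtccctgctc
IBSP: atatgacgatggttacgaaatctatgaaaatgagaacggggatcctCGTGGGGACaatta
DMP1: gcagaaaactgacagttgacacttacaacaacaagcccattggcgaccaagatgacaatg
OMD: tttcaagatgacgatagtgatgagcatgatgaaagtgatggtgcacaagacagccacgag
S100A9: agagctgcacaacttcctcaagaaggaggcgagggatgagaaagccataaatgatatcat
EGLN3: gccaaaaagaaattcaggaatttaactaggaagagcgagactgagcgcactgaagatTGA

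With 1 array a side there is no replicate and no test, so every value below is a fold or a count. The only error that the files allow is technical, from repeated spots within an array, of 28 probes on HPD day 7 and 31 on HPD day 5. Their median SD, combined over both arrays, gave 0.12 on the log2 scale for a difference. It leaves out any spread between animals, and between arrays through RNA amplification, labelling or hybridisation. All 4 arrays of days 7 and 5 lay on 1 slide and both day 3 arrays on the other. The share of spots well above background was 78.1% on the HPD day 7 array and 81.5% on the HPD day 5 array, the lowest of the 6, and between 84.2% and 86.4% on the others. No array had a saturated spot. Over 18061 features measured throughout, the HPD day 5 array was at least 2-fold above each of the other 5 arrays for 102 and at least 2-fold below each for 4. The HPD day 7 array stood alone in this way for 53 features on the high side and 1 on the low side. No result can be given without either of these arrays. Markers of osteoblasts, osteocytes, fibroblasts, macrophages, neutrophils and vessels were well above background on both HPD arrays. Of the brain markers GFAP and SYT1, neither was above background on day 7 and GFAP alone was on day 5. The epidermal markers measured were below background on both.

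Between the 2 days, 602 features (3.28%) were at least 2-fold higher on day 7 and 778 (4.24%) at least 2-fold lower, with 72 and 128 of them past 4-fold. The middle of all features lay at a difference of 0.07, with quartiles at −0.24 and 0.34. Of the features past 2-fold, 299 higher and 348 lower ones have a gene symbol. Where a gene past 2-fold had several probes, all of them had the same sign in 270 of 315 genes (85.7%), although 53.1% of such other probes start within 60 bases of the one used. The share past 2-fold was greatest among dim features, by the intensity on the dimmer of both HPD arrays. Under an intensity of 50, 5.12% were higher and 4.87% lower, against 1.96% and 3.65% at 500 and above. By list median, bone matrix genes lay at the high end, followed by fibrillar and basement collagens. At the low end were cytokine, neutrophil, interferon, hypoxia and cell cycle genes, although 2 neutrophil genes were at least 2-fold higher.

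**Figure D1:**
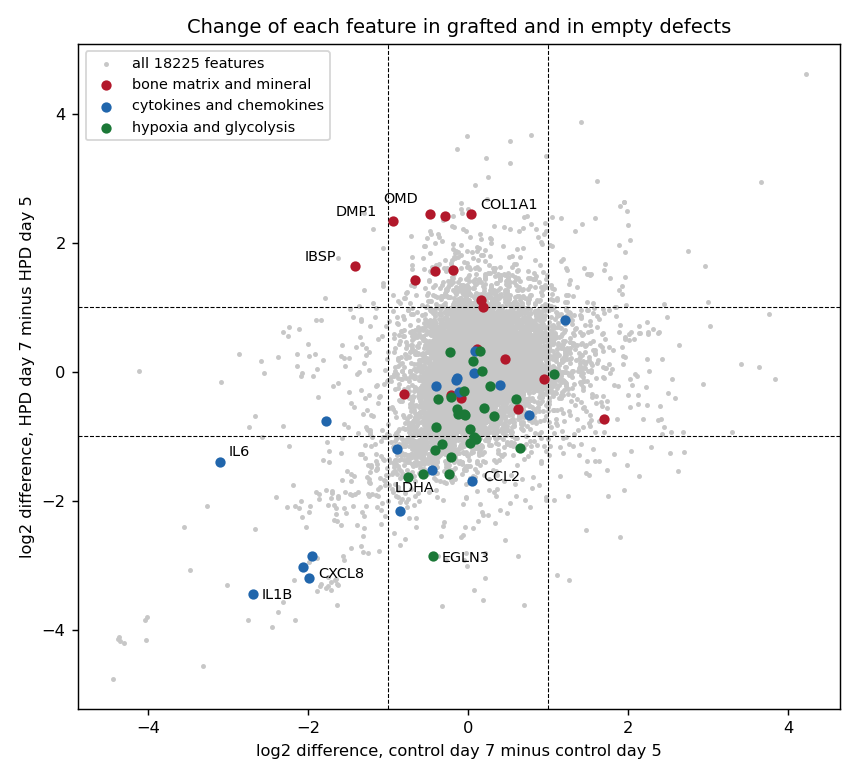
Each point is 1 of 18225 features above background on all 4 arrays of days 7 and 5, with its log2 difference in HPD defects on the vertical axis and in control defects on the horizontal axis. Dashed lines mark 2-fold. Bone matrix genes (red) such as COL1A1 sit high near or left of the middle, hypoxia genes (green) such as EGLN3 sit low near the middle, and cytokine genes (blue) such as IL1B sit low on both axes.

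Genes of bone matrix and mineral were higher on day 7 in grafted defects. Of 24 genes on this list, 18 were on the array and all 18 were measured. At least 2-fold higher on day 7 were 10 of them (55.6%, against 3.28% of all features), none was 2-fold lower, and the median difference was 1.06. In bulk tissue a larger number of cells of a type and more RNA per cell cannot be told apart, and this holds for every list below.

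COL1A1, the first chain of type I collagen, stood at 6.48 on day 7, against 4.03 on day 5, and was 5.45-fold higher. In unfilled controls its level was 5.33 on day 7, against 5.29 on day 5. The grafted level was thus above the control level on day 7 and below it on day 5. The partner chain COL1A2 stood at 10.20 on day 7, against 9.20 on day 5, 2.01-fold higher, and with quantile scaling the difference was 0.79. The 11 probes of COL1A2 had differences from 0.61 to 1.79, whereas COL1A1 rested on 1 probe. OMD, osteomodulin, a proteoglycan of mineralised matrix, was 5.47-fold higher, with levels of 3.78 on day 7 and 1.33 on day 5. Controls had OMD levels of 3.04 on day 7 and 3.51 on day 5.

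Osteocyte genes were among the highest. DMP1, dentin matrix protein 1, which osteocytes secrete, stood at 1.65 on day 7, against −0.68 on day 5, and was 5.05-fold higher. PHEX, the membrane peptidase whose loss causes phosphate wasting, stood at 0.72 on day 7, against −1.69 on day 5, 5.34-fold higher. Both also had lower levels on day 3, at −3.11 for DMP1 and −2.44 for PHEX, so their 3 grafted levels went up in order of time. MEPE, a further osteocyte gene, did not share this: its difference was −0.58, at dim levels. SOST, the osteocyte Wnt inhibitor, differed by 0.20.

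IBSP, bone sialoprotein, which seeds mineral and binds cells, was 3.10-fold higher, at 6.39 on day 7 against 4.76 on day 5. In controls it ran the other way, at 5.44 on day 7 against 6.85 on day 5. SERPINF1, the secreted factor missing in a form of brittle bone disease, was 2.97-fold higher. The parathyroid hormone receptor PTH1R was 2.69-fold higher. BGN, biglycan, was 2.17-fold higher.

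The 6 members that were lower did not reach 2-fold. MGP, matrix Gla protein, an inhibitor of calcification, had a difference of −0.73 in grafted defects and of 1.70 in controls. SPP1, osteopontin, was high on all 3 days, at 8.28, 8.51 and 8.16 on days 3, 5 and 7. The others were MEPE, the pyrophosphate-making enzyme ENPP1 (−0.41), osteoprotegerin TNFRSF11B (−0.37) and the phosphatase PHOSPHO1 (−0.11).

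Across the 18 bone genes the median difference between grafted and empty defects was 0.57 on day 7 and −0.49 on day 5, HPD minus control. Set against the control array of day 5, the grafted array of day 7 had a median of 0.48, and 17 of the 18 genes lay within 2-fold of the control level of day 5. Over the same days the control median difference was −0.14, with 1 gene past 2-fold in each direction.

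**Figure D2:**
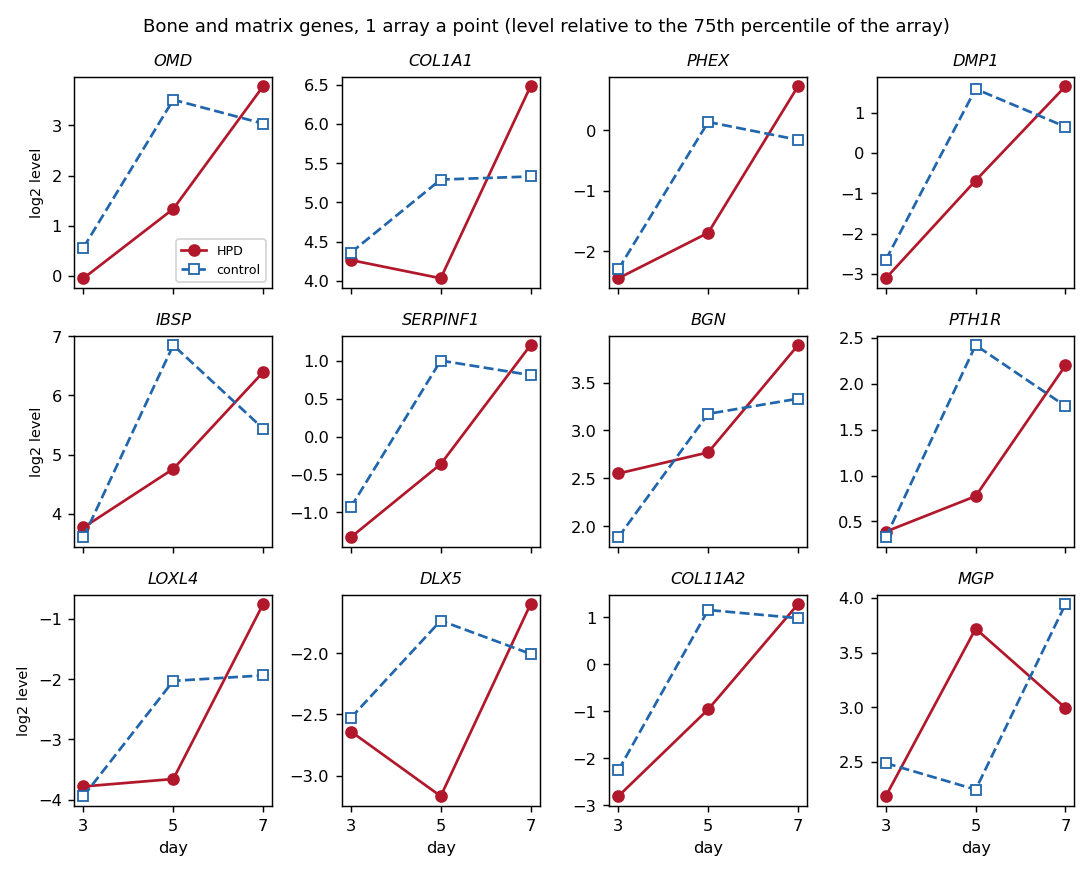
Log2 level of bone genes on days 3, 5 and 7, 1 array a point, in HPD defects (red, filled) and control defects (blue, open). COL1A1, OMD, DMP1, PHEX and IBSP lie below the control on day 5 and above it on day 7 in the HPD series.

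Osteoblast transcription factors were measured for 7 of 14 genes, with a median difference of 0.37. At least 2-fold higher was 1 (14.3%, against 3.28% of all features). DLX5, a homeobox factor of early osteoblasts, stood at −1.60 on day 7, against −3.17 on day 5, 2.97-fold higher, a dim probe whose difference was 0.92 after normexp background correction. RUNX2, the master regulator of the lineage, stood at −0.59 on day 7, against −1.46 on day 5, 1.83-fold higher and short of the 2-fold line. SP7, osterix, which acts after RUNX2, differed by 0.44, and MSX2 by −0.04. In controls RUNX2 differed by −0.41 and DLX5 by −0.27.

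Among other collagens the control median was as large as the grafted one. Of 13 measured members of a list of fibrillar and basement collagens, 3 were at least 2-fold higher (23.1%, against 3.28% of all features). Above 0 were 11, and the median difference was 0.70 in grafted and 0.77 in empty defects. COL5A2 (1.44) and COL5A1 (1.07), chains of the collagen that nucleates type I fibrils, were 2.72-fold and 2.10-fold higher in grafted defects, and their control differences were 0.13 and 0.16. COL16A1 had a difference of 1.01. Outside the list, COL4A3 (−1.06) and COL7A1 (−1.01) were 2-fold lower. COL3A1, the early wound collagen, differed by 0.74 in grafted and 0.83 in empty defects. COL6A1 (0.63) and COL14A1 (0.59), of microfibrils and fibril surfaces, had larger control differences, of 1.53 and 1.69. COL1A2, COL5A1 and COL16A1 lay so near the 2-fold line that centring the differences on their median took all 3 below it.

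Enzymes that modify and cross-link collagen leaned the same way as bone matrix, with 15 of 17 above 0, a median of 0.50 and a control median of −0.02. LOXL4, a cross-linking oxidase, stood at −0.76 on day 7, against −3.66 on day 5, and was 7.46-fold higher, while controls had −1.94 on day 7 and −2.03 on day 5. Its signal was dim on day 5, its 5 probes had differences from 1.90 to 2.90, and the difference after normexp was 1.69. P3H2, a prolyl hydroxylase, was 2.80-fold higher, so that 2 of 17 (11.8%, against 3.28% of all features) passed 2-fold. The remaining 15 stayed within 2-fold, among them the collagen chaperone SERPINH1 (0.66), the telopeptide lysyl hydroxylase PLOD2 (0.70) and LOX itself (0.55).

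Of 13 measured cartilage genes, COL11A2 was the single member past 2-fold (7.69%, against 3.28% of all features higher). It stood at 1.28 on day 7 against −0.96 on day 5 (4.73-fold higher). COL2A1, the main cartilage collagen, differed by 0.37 on its brightest probe, but its 6 probes ran up to 2.76. Aggrecan ACAN differed by 0.94 at dim levels, and SOX9, the chondrocyte regulator, was not above background on either HPD array. Among the chondrocyte markers 2 of 3 on the array were above background on each HPD array.

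Proteoglycans and matricellular proteins, which organise fibrils and signal to cells, held 20 measured members, with a median of 0.39. At least 2-fold higher were 4 (20.0%, against 3.28% of all features), and at least 2-fold lower was 1 (5.00%, against 4.24%). TNN, tenascin W, found at sites of bone formation, was 3.53-fold higher, at −0.37 on day 7 against −2.19 on day 5. OGN, osteoglycin, was 3.37-fold higher, at 3.92 on day 7 against 2.17 on day 5, and in controls its difference was 1.18. THBS3 (1.13) and ECM2 (1.01) were the other higher ones, each under 2-fold after normexp. CCN1, a growth factor-induced matricellular protein, was 2.09-fold lower, with a difference of −0.97 after normexp.

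Here grafted and empty defects parted for several genes of fibrous tissue. POSTN, periostin, differed by 0.51 in grafted and by 1.96 in empty defects. DPT, dermatopontin, a dermal collagen-binding protein, stood at −0.07 on HPD day 7 and 0.86 on HPD day 5, and its control difference was 3.29. ACTA2, smooth muscle actin, the mark of contractile fibroblasts, differed by 0.23 in grafted and 1.97 in empty defects. TAGLN, a further contractile gene, was 2.13-fold higher in grafted defects and 2.80-fold higher in controls. The contractile list had a median of 0.37 over 13 genes in grafted defects and of 0.58 in controls. In controls 4 of the 13 were at least 2-fold higher, against 2.74% of all features.

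Proteases went in both directions, with 3 of 22 higher past 2-fold (13.6%, against 3.28% of all features) and 2 lower (9.09%, against 4.24%). ADAMTS9 (1.90), which cleaves proteoglycans, the gelatinase MMP2 (1.43) and the membrane protease MMP16 (1.06, and 0.93 after normexp) were at least 2-fold higher on day 7. MMP2 stood at 3.53 on day 7, against 2.10 on day 5, and its control difference was 0.22. MMP13, the collagenase of bone and of wounds, was 2.59-fold lower, at 5.73 on day 7 against 7.11 on day 5, and 3.51-fold lower in controls. MMP7 was 4.98-fold lower at dim levels, with a difference of −0.80 after normexp. The remaining 17 of 22 stayed within 2-fold.

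None of 11 osteoclast genes was past 2-fold, and their median was 0.28. The bone-resorbing protease CTSK differed by −0.13 at 6.15 on day 7 and 6.27 on day 5. ACP5, the acid phosphatase of these cells, differed by 0.65, the proton pump subunit ATP6V0D2 by 0.93 and the carbonic anhydrase CA2 by −0.97.

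Cytokine and chemokine genes were lower on day 7. Of 36 on the list, 23 were on the array and 19 were measured. At least 2-fold lower on day 7 were 9 of the 19 (47.4%, against 4.24% of all features), none was 2-fold higher, and the median difference was −0.77. The 4 others, CCL7, IL10, IL19 and IL33, lacked signal above background on 1 or both HPD arrays.

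IL1B, interleukin 1 beta, the cytokine of early inflammation, stood at 2.17 on day 7, against 5.62 on day 5, and was 10.9-fold lower. In controls it stood at 1.22 on day 7 and 3.91 on day 5, 6.48-fold lower. CXCL8, the chief chemoattractant of neutrophils, stood at 1.24 on day 7, against 4.44 on day 5, and was 9.19-fold lower. On both days these genes were higher in grafted than in empty defects. CCL4, a chemokine for monocytes and T cells, was 8.12-fold lower, and CCL5, of related function, 7.28-fold lower. CXCL5, which like CXCL8 draws neutrophils, was 4.47-fold lower.

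CCL2, which draws monocytes, stood at 1.42 on day 7, against 3.11 on day 5, 3.23-fold lower, whereas controls had 2.09 on day 7 and 2.04 on day 5. IL1RN, the natural blocker of the interleukin 1 receptor, was 2.88-fold lower in grafted defects and 1.37-fold lower in controls. IL6 was 2.63-fold lower in grafted defects, less than the 8.61-fold of controls, and PTGS2, the inducible prostaglandin enzyme, differed by −0.77 and by −1.78 in controls. CXCL10, an interferon-induced chemokine, had a difference of −1.20 at dim levels, and of −0.50 after normexp. CSF2 (−0.02) and oncostatin M (OSM, −0.13) differed by less than the SD from repeated spots or close to it. Probes of TNF and IL1A disagreed: the brightest gave −0.10 for TNF and 0.80 for IL1A, while the 5 TNF probes ran down to −1.54 and the 3 IL1A probes ranged over −1.66 to 1.36.

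Across the 19 cytokine genes the median HPD minus control difference was 0.61 on day 7 and 1.07 on day 5. The control median for day 7 minus day 5 was −0.40.

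The lowest named genes included several outside this list. MS4A6A, a membrane gene of monocytes and macrophages, was 15.6-fold lower, at −0.51 on day 7 against 3.45 on day 5. IDO1, the tryptophan-degrading enzyme induced by interferon, was 14.4-fold lower, and the interleukin 1 decoy receptor IL1R2 12.3-fold lower. CA4, a membrane carbonic anhydrase, was 12.5-fold lower, at −3.83 on day 7 against −0.19 on day 5, and 1.25-fold lower in controls. Its signal was dim on day 7, and its grafted difference was −2.02 after normexp, against −3.64. The G protein regulator RGS2 (9.99-fold), the arginine-degrading ARG1 (9.42-fold) and the leukotriene pathway protein ALOX5AP (7.71-fold) were lower as well.

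Neutrophil genes did not act as 1 group. Of 12 measured, 5 (41.7%, against 4.24% of all features) were at least 2-fold lower on day 7. At least 2-fold higher were 2 (16.7%, against 3.28% of all features). The median was −0.67 in grafted defects and −0.21 in controls. S100A9 and S100A8 form calprotectin, the main cytosolic protein pair of neutrophils. S100A9 stood at 3.67 on day 7, against 7.83 on day 5, and was 17.8-fold lower. S100A8 stood at 4.91 on day 7, against 8.72 on day 5, and was 14.0-fold lower. A separate array entry for MRP-8, an older name of that protein, was 14.5-fold lower. Controls had similar sizes, 16.3-fold lower for S100A9 and 16.1-fold lower for S100A8. A second S100A9 probe had a smaller difference, of −1.29. FPR1, the receptor for bacterial peptides, was 6.94-fold lower.

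Some granule genes went the other way. LCN2, the iron-binding granule protein lipocalin 2, stood at 4.73, −2.57 and −0.15 on days 3, 5 and 7 in grafted defects, 5.35-fold higher on day 7 than on day 5. CAMP, a cathelicidin antimicrobial protein, stood at 5.90, −0.62 and 1.36, and was 3.93-fold higher on day 7 than on day 5. MCP2, the array's name for a macrophage cationic peptide, stood at 8.03, 1.70 and 4.20, and was 5.66-fold higher. All 3 were highest on day 3 and lowest on day 5. In controls the day 7 minus day 5 differences were −0.19 for LCN2, 0.92 for CAMP and 1.99 for MCP2. MCP2 and this grouping were singled out after their values were seen, and other granule genes did not share it: MPO, myeloperoxidase, differed by 0.47, and BPI, outside the list, by −1.31. Eosinophil granule genes had differences of 0.85 for EPX and 0.68 for PRG3 at dim levels.

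**Figure D3:**
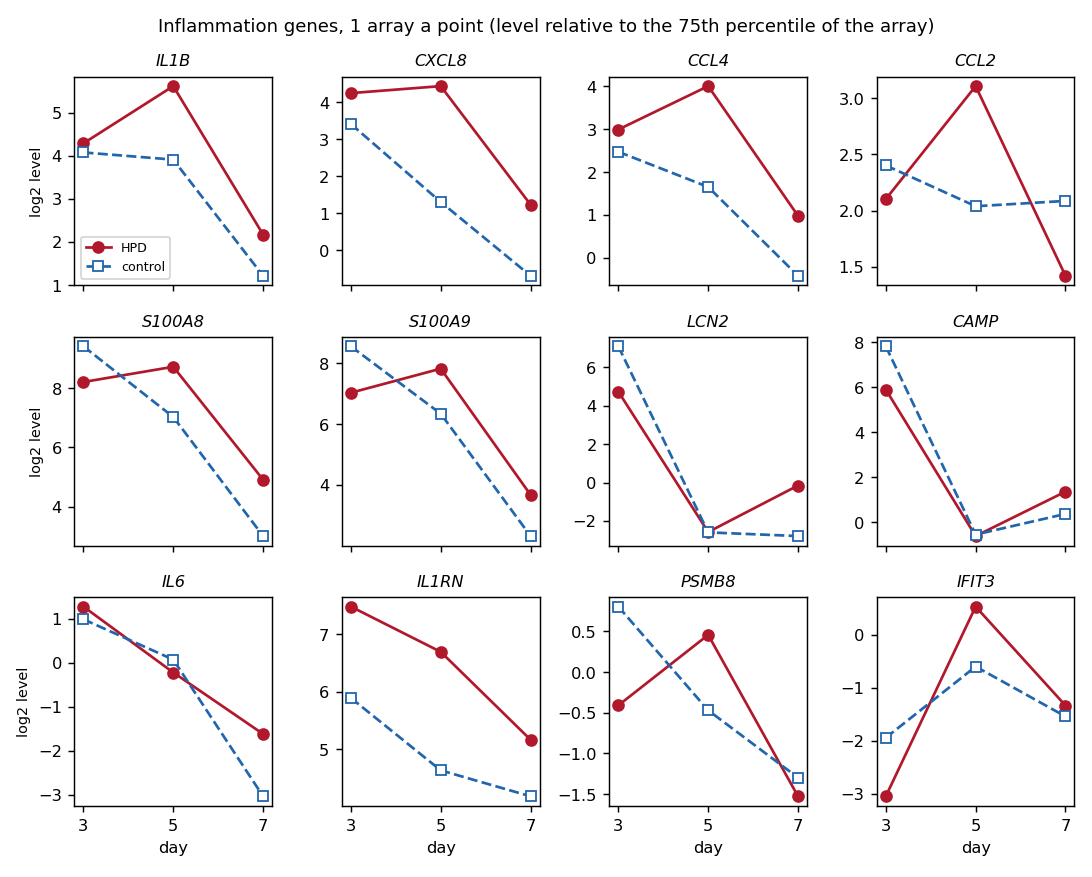
Log2 level of inflammatory and neutrophil genes on days 3, 5 and 7, 1 array a point, in HPD defects (red, filled) and control defects (blue, open). IL1B, CXCL8 and S100A9 are lower on day 7 than on day 5 in both series, and LCN2 is lowest on day 5 in the HPD series.

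Macrophage genes were mostly within 2-fold, with 2 of 14 lower past it (14.3%, against 4.24% of all features). Their median was −0.18, against 0.20 in controls. MARCO, a scavenger receptor for particles, stood at −2.27 on day 7, against −0.18 on day 5, 4.28-fold lower. CHIT1, the chitinase of activated macrophages, was 2.79-fold lower. CD14, MRC1, MSR1 and TLR4 had differences of −0.59, −0.91, −0.84 and −0.79, and the pan-macrophage CD68 one of −0.03. Of 16 T and NK cell genes, 2 were lower past 2-fold (12.5%, against 4.24% of all features). These were CD3G (4.18-fold) and LCK (2.82-fold), both dim, and LCK had a difference of −0.36 after normexp. CD3E and CD3D, chains of the same receptor complex, had −0.74 and −0.49. No B cell gene of 7 was past 2-fold. Of 8 mast cell and eosinophil genes 1 was (12.5%, against 4.24% of all features), the IgE receptor chain MS4A2 (2.37-fold lower).

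Interferon-induced genes had a median difference of −0.67, with 6 of 14 (42.9%, against 4.24% of all features) at least 2-fold lower and none higher. CXCL10 and RIGI, among the 6, were under 2-fold after normexp. PSMB8 (3.95-fold) and PSMB9 (2.88-fold), subunits of the immunoproteasome, and TAP1 (3.52-fold), the peptide transporter, serve antigen presentation. IFIT3, an antiviral protein, stood at −3.04, 0.53 and −1.33 on days 3, 5 and 7. The RNA sensor RIGI was 2.18-fold lower. In controls PSMB8 differed by −0.83, TAP1 by −1.13 and IFIT3 by −0.94, and the list by −0.16 at its median. The antigen presentation list shares PSMB8, PSMB9 and TAP1, its only members past 2-fold (17.6%, against 4.24% of all features lower). Its class II genes RLA-DMA (0.01) and RLA-DR-ALPHA (−0.42) stayed within 2-fold.

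Hypoxia and glycolysis genes were lower on day 7 in grafted defects. Of 29 measured, 11 were at least 2-fold lower (37.9%, against 4.24% of all features), none was 2-fold higher, and 25 were below 0. Their median was −0.67 in grafted defects and −0.05 in controls, where none was 2-fold lower.

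EGLN3, the prolyl hydroxylase that tags HIF for destruction and is itself induced by HIF, stood at 2.03, 2.51 and −0.35 on days 3, 5 and 7. It was 7.27-fold lower on day 7 than on day 5. In controls it stood at −1.76 on day 7 and −1.32 on day 5. BNIP3L and BNIP3, which direct removal of mitochondria, were 3.09-fold and 2.06-fold lower. BNIP3L is also made in maturing red cells, whose genes shared no single direction, as given below. A link between them was not tested.

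Enzymes along the glycolytic chain shared the direction. PGK1 stood at 1.95 on day 7, against 3.54 on day 5, 3.01-fold lower, and LDHA, which makes lactate, at 3.84 on day 7 against 5.43 on day 5, 3.01-fold lower. PGAM1 (2.32-fold), ALDOA (2.17-fold) and ENO2 (2.16-fold) were lower past 2-fold. The glucose transporter SLC2A3 (−1.33) and the peptide hormone ADM (−1.18) were dim, with −0.43 and −0.40 after normexp. NDRG1 was 2.02-fold lower. GAPDH, often used as a reference, had a difference of −0.89 in grafted defects and of 0.03 in controls. Other members were not lower: the HIF subunit HIF1A (0.17) and the enzymes PDK1 (0.32) and P4HA1 (0.30) had small positive differences, and HK2 (−0.04) and DDIT4 (0.01) were near 0.

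The HPD minus control median of these 29 genes was 0.02 on day 7 and 0.75 on day 5. The 11 reference genes, several of them in use for normalisation, had a median of −0.27 in grafted defects and −0.05 in controls.

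**Figure D4:**
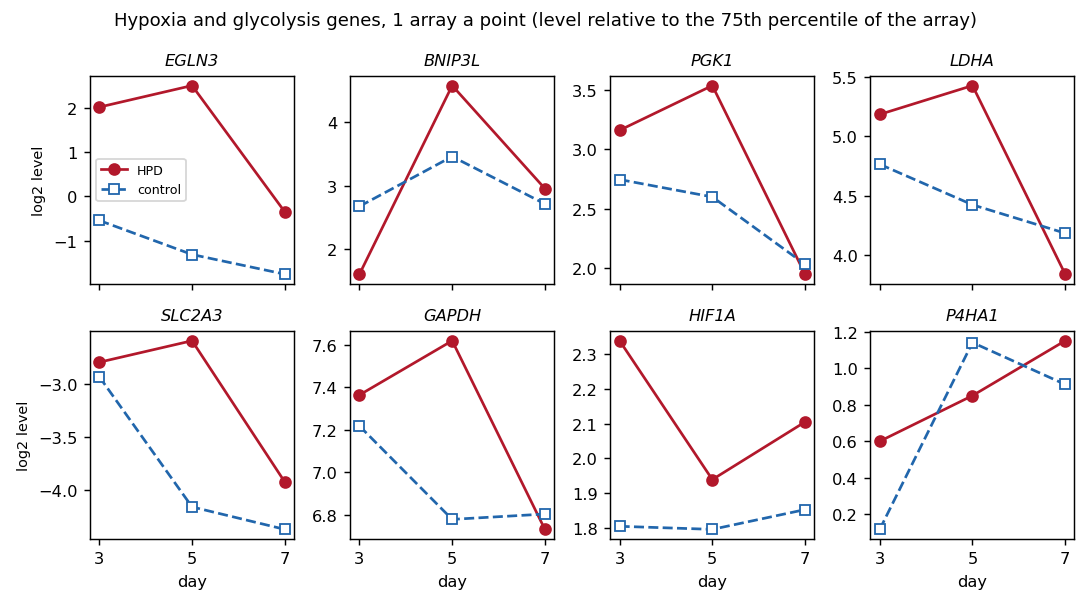
Log2 level of hypoxia and glycolysis genes on days 3, 5 and 7, 1 array a point, in HPD defects (red, filled) and control defects (blue, open), each panel with its own scale. EGLN3, PGK1 and LDHA are higher in HPD than in control on days 3 and 5, and PGK1 and LDHA lie near or below the control on day 7.

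Cell cycle genes leaned lower together by small amounts. Of 29 measured, 27 were below 0, and the median was −0.62, against −0.33 in controls. CDC6 alone reached 2-fold (3.45%, against 4.24% of all features lower). CDK1, the mitotic kinase, stood at 3.30 on day 7, against 4.26 on day 5, with differences of −0.96 in grafted and −0.57 in empty defects. CCNB1, its cyclin, had −0.91, the replication clamp PCNA −0.73, the helicase subunit MCM6 −0.71 and the proliferation marker MKI67 −0.33. The exceptions were PLK1 (0.34) and KIF20A (0.61). CDC6, which loads the helicase, was 2.01-fold lower at dim levels, and its difference was −0.46 after normexp.

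Among signalling pathways, 4 of 28 Wnt genes were at least 2-fold higher (14.3%, against 3.28% of all features) and none 2-fold lower. Their median was 0.32, against 0.07 over all features, and the control median was −0.03. The 4 past 2-fold were SFRP2 (1.45), DKK1 (1.27) and FRZB (1.19), secreted proteins that bind Wnt or block its receptors, and TCF7 (1.15), a nuclear effector. DKK1 stood at 0.20 on day 7, against −1.07 on day 5, while controls had −0.56 on day 7 and 0.75 on day 5. SFRP2 was higher in both, at 3.11 on day 7 against 1.66 on day 5 in grafted defects, and at 3.45 against 1.67 in controls. FRZB and TCF7 were under 2-fold after normexp. The ligand WNT5A (0.29), the receptor LRP5 (0.20) and beta-catenin CTNNB1 (0.29) stayed within 2-fold.

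Of 26 TGF-beta and BMP genes none was past 2-fold. Nearest were the receptor ACVR1 (0.98) and the ligand BMP4 (0.96), with control differences of 0.02 and −0.76. BMP2 differed by 0.04, TGFB1 by 0.14 and the antagonist noggin NOG by −0.50. BAMBI, a decoy receptor of this pathway outside the list, stood at 0.12, 0.11 and 2.57 on days 3, 5 and 7, 5.49-fold higher on day 7 than on day 5. In controls it stood at 1.26 on day 7 and 2.55 on day 5.

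Genes of the secretory pathway, which osteoblasts use to export collagen, had a median of 0.18 over 27 members, against −0.15 in controls. CREB3L1, a transcription factor for collagen secretion, was the 1 member at the 2-fold line (3.70%, against 3.28% of all features higher). It stood at 1.41 on day 7 against 0.41 on day 5, with a difference of 0.92 after normexp. PDIA3 had 0.84 and SEC31A, a coat protein of export vesicles, 0.58. The chaperone HSPA5 had −0.45.

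Vessel genes were split. Of 13 endothelial genes, CLDN5 (1.02), a tight junction protein, was 2-fold higher, and LYVE1 (−1.93) and ESAM (−1.06) were 2-fold lower. The shares were 7.69% higher and 15.4% lower, against 3.28% and 4.24% of all features. LYVE1, a lymphatic and macrophage marker, has a second probe with a difference of 0.69. After normexp CLDN5 had 0.72 and ESAM −0.95. PECAM1 had −0.66, VWF 0.65 and KDR −0.06. Of 16 angiogenic factors PDGFB (−1.29) and ADM were 2-fold lower (12.5%, against 4.24% of all features). Midkine MDK (1.27) was 2-fold higher (6.25%, against 3.28%).

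Red cell genes did not act as 1 group either. Of 13 measured, 6 (46.2%, against 4.24% of all features) were at least 2-fold lower and 1 (7.69%, against 3.28%) was 2-fold higher. In all, 5 of the 13 were above 0. The lower ones included RHAG (3.80-fold), EPB42 (2.93-fold), TMOD1 (2.50-fold), ALAS2 (2.46-fold) and EPB41 (2.17-fold). The red cell marker SLC4A1 stood at −2.21 on day 7, against −2.82 on day 5. After normexp RHAG, TMOD1 and EPB41 were under 2-fold. ALAS2, the first enzyme of erythroid haem synthesis, stood at 3.39, 6.03 and 4.73 on days 3, 5 and 7. The globins HBA (0.19, with probes from −0.65 to 1.07) and HBB2 (0.27) stayed within 2-fold on the probes used, and the erythropoietin receptor EPOR was 3.31-fold higher. In controls the list had a median of −0.61, against −0.29 in grafted defects.

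**Figure D5:**
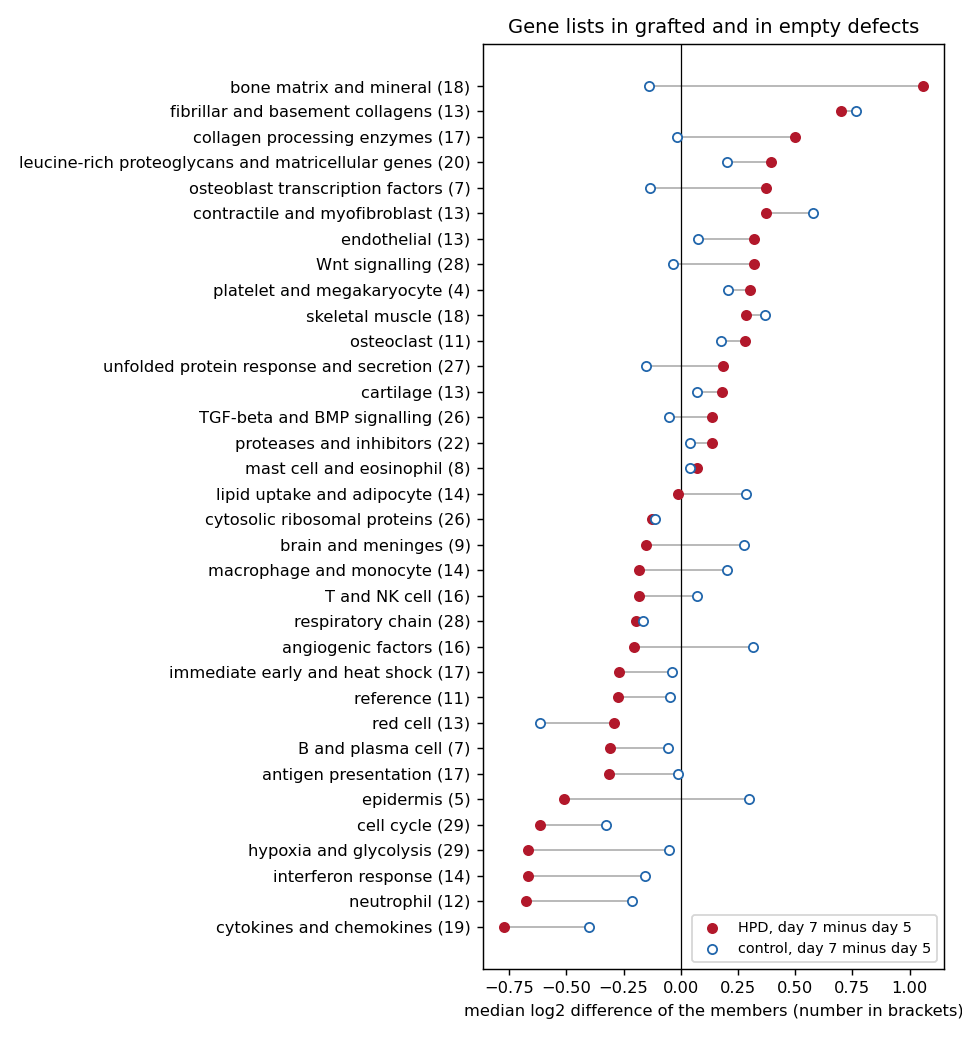
Median log2 difference, day 7 minus day 5, of the members of each gene list in HPD defects (filled red) and control defects (open blue), with the number of members above background on all 4 arrays in brackets. Bone matrix has the highest HPD median and cytokines the lowest, and bone matrix, collagen processing and hypoxia have control medians near 0.

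The change in grafted defects was then set against that in empty ones, over 18225 features above background on all 4 arrays, which asks where the course with the graft parted from healing without it. The arrays of the 2 treatments are separate, and their differences correlated at 0.34 across features, a description only, since all 4 arrays share a slide. Each rabbit had both grafted and empty holes, so the tissue of both treatments on a day may also share animals, which the labels do not say. In controls, 500 features (2.74%) were at least 2-fold higher on day 7 and 246 (1.35%) lower, against 587 and 772 in grafted defects on the same features. Higher in both were 62, or 10.6% of the grafted and 12.4% of the control set. Lower in both were 148, or 19.2% of the grafted and 60.2% of the control set. Opposite calls were made for 11 features higher in grafted and lower in empty defects and for 35 the other way.

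The difference between both changes passed 2-fold upward in 589 features (3.23%) and downward in 894 (4.91%). Among named genes BAMBI had the highest value, 3.75, followed by ECRG4, a secreted growth suppressor (3.41), MAMDC2, a matrix protein (3.40), and DMP1 (3.27). ECRG4 stood at 1.86 on HPD day 7 and −0.35 on HPD day 5, and at 0.97 on control day 7 and 2.17 on control day 5. IBSP (3.04) and OMD (2.93) followed. For these genes the grafted and control levels crossed between the days, the grafted one being the lower on day 5 and the higher on day 7. CNGA4 (3.14), in contrast, took its value from the control arrays, with −4.02 on day 7 and −1.16 on day 5, and differed by 0.27 in grafted defects.

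At the low end stood MYH3, the embryonic muscle myosin, with −4.47, DPT with −4.22 and COLQ, the collagen tail of acetylcholinesterase, with −3.93. DPT stood 9.80-fold higher on day 7 than on day 5 in controls. Several others rested on dim probes: UNG (−3.56) and N4BP2L1 (−3.28) had grafted differences of 0.08 and 0.13, so their values came from the control day 7 array. CA4 (−3.32) came from the grafted arrays. The bone list had a median of 0.89, with 8 of 18 members past 2-fold upward and 3 downward (MGP, MEPE and PHOSPHO1), and the hypoxia list one of −0.79, with 26 of 29 members below 0.

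The HPD array of day 3 gives the longer course, read from 1 array on the other slide. Of 773 features lower on day 7 than on day 5, 571 (73.9%) had a day 3 level below that of day 5, and in 326 (42.2%) it was at least 2-fold below. Of 597 features higher on day 7, 370 (62.0%) had a day 3 level above that of day 5, while 227 (38.0%) had one below it. Over all 18296 features compared, day 3 was above day 5 in 58.1%, below it in 41.9% and at least 2-fold below it in 3.51%. Day 5 is shared by both steps, so a feature high on that array alone counts among those lower on day 7.

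By name, the bone genes were of the kind with lower day 3 levels: OMD stood at −0.05, 1.33 and 3.78, IBSP at 3.77, 4.76 and 6.39, and COL1A2 at 8.38, 9.20 and 10.20 on days 3, 5 and 7. COL1A1, at 4.27, 4.03 and 6.48, had no such step before day 5. IL1B had its highest grafted level on day 5, at 4.29, 5.62 and 2.17, as had S100A9, at 7.04, 7.83 and 3.67. CXCL8 was level over the first days, at 4.25, 4.44 and 1.24.

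The 15 highest named genes held others outside these lists. FOXN4, a forkhead factor, was 24.5-fold higher in grafted and 18.7-fold higher in empty defects, with intensities of 655 on HPD day 7 and 33.1 on HPD day 5. ITGBL1, an integrin-like secreted protein (6.18-fold), and ABI3BP, a matrix-binding protein (6.22-fold), were higher in both treatments, and several probes of each had similar values. SCGB1D was 14.6-fold and RABIF 8.12-fold higher in grafted defects, and 2.67-fold and 1.19-fold higher in controls. HOXC6 was 7.94-fold higher in grafted defects and was not above background on the control day 5 array. The second probes of SCGB1D and HOXC6 had differences of 0.17 and 0.20. After normexp the grafted differences were 3.16 for FOXN4, against 4.61, and 2.02 for SCGB1D, against 3.87. For RABIF it was 2.13, against 3.02, and for HOXC6 1.65, against 2.99.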

How the data were processed

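RNA of 6 samples was measured, 1 array per treatment and day. Column extraction with DNase digestion and amplification of 0.2 µg with Cy3 incorporation are given in the labels' protocols. Each deposited number is the intensity of a spot. Per the file headers they come from Feature Extraction 10.5.1.1 on an oryCun2 design, after spatial detrending, background subtraction and multiplicative detrending, and no step between arrays is recorded. Dim spots carry surrogate values.

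Control and outlier spots were left out, repeated spots of a probe averaged, and log2 intensity taken minus the 75th percentile of each array. Features needed a probe well above background on both HPD arrays, and the brightest probe stood for a gene. Of 43603 probes, 22893 were given 1 symbol through array columns and a RefSeq gene table (mOryCun1.1, names only), 6 matched several and 20704 none. Intensity bands use the dimmer of both HPD arrays for each feature. With 1 array a group no test was possible, and called means at least 2-fold. The number of arrays limits the precision.

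Alternatives were quantile scaling, centring, normexp (limma 3.58.1, R 4.3.3, offset 50), the mean of a gene's probes, other filters and other thresholds. Computation in Python 3.11.15 (numpy 2.4.6, pandas 2.3.3, figures with matplotlib 3.10.9) was tested on simulated data.

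The members and the 34 gene lists were chosen with earlier results of these data known. Named are the 15 highest and 15 lowest genes whose probes and normexp value share a sign, up to 8 members past 2-fold per list (the 3 largest where none is), the 12 largest differences from controls each way, the 5 largest bounds each way, and 43 fixed genes, of which 39 were measured. Other list members are given as examples of their list, and a few genes are not reported here.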

Additional observations from a re-analysis of the deposited data

Results flagged for a closer look

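In the following results the day 7 minus day 5 differences of grafted and empty defects had opposite signs, on 1 array each, and the contrast was not tested. Values are the grafted minus the control difference on the log2 scale.

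Among gene lists, the median of this difference was 0.89 for bone matrix, 0.40 for osteoblast transcription factors and 0.33 for the secretory pathway. It was −0.34 for macrophages and monocytes, −0.33 for angiogenic factors, −0.44 for the 9 brain genes and −0.51 for the 5 epidermal genes measured. The medians of the angiogenic, brain and epidermal lists changed sign in grafted defects under another processing, between −0.28 and 0.09, −0.47 and 0.12, and −0.58 and 0.29.

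Among genes, BAMBI (3.75), ECRG4 (3.41), MAMDC2 (3.40), IBSP (3.04) and the Wnt inhibitor DKK1 (2.58) were at least 2-fold higher on day 7 in grafted and at least 2-fold lower in empty defects. MYH3 (−4.47), COLQ (−3.93), ANO2 (−3.26), CMTM2 (−3.26), PSD4 (−3.17) and the growth factor PDGFB (−2.30) were lower in grafted and higher in empty defects. MYH3, COLQ, ANO2, PSD4 and PDGFB rest on dim probes, whose grafted differences were −1.14, −1.02, −0.52, −0.93 and −0.63 after normexp, in that order.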

How the results depend on the processing

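Of 44 recomputed counts, 23 stayed within 1.5 times of their value and 21 did not. With normexp, 208 features were higher and 351 lower, the difference from controls passed 2-fold in 251 upward and 264 downward, 117 higher features had a lower day 3 level and 65 lower ones a higher day 3 level, and the medians were −0.50 for cytokines, −0.50 for neutrophils, −0.54 for hypoxia, −0.46 for cell cycle and −0.38 for interferon genes. Without a filter on dim probes, 1073 were higher and 1404 lower, 1178 and 2060 passed for the difference from controls, and 444 lower features had a higher day 3 level. With a signal of at least 100, which leaves fewer features, these were 224 and 362, 210 and 235, and 114 and 74 for the courses, and the medians were 1.43 for bone matrix, −1.40 for cytokines, −0.46 for neutrophils and −1.32 for interferon genes. The mean of the probes gave bone matrix 1.23. Thresholds of 1.5-fold and 3-fold gave 2138 and 156 higher, 1991 and 241 lower. Of 119 named genes past 2-fold, 39 fell under it in at least 1 setting, 35 of the 53 such values with normexp. NEB, a muscle gene at 1.13, reversed to −0.26 with the mean of its probes. The cause was not tested. No paired analysis was possible because each group has 1 array. Signal over background limits the dim genes most.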

Other observations

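Muscle, lipid and stress genes fell outside the comparisons above. Of 18 skeletal muscle genes in grafted defects, 4 were at least 2-fold higher on day 7 (22.2%, against 3.28% of all features). At least 2-fold lower were 2 (11.1%, against 4.24%). The median was 0.29 in grafted defects and 0.37 in controls. CKM, muscle creatine kinase, stood at −1.42 on day 7, against −4.38 on day 5, 7.77-fold higher, and was 3.05-fold higher in controls. Its signal was dim on day 5, and its grafted difference was 1.26 after normexp, against 2.96. MYH3, also dim, was 5.94-fold lower in grafted and 3.72-fold higher in empty defects. PLIN2, which coats lipid droplets, was 3.19-fold lower, and DGAT2, which makes triglyceride, 3.01-fold lower, while the fat cell hormone ADIPOQ was 2.53-fold higher at dim levels. The lipoprotein lipase gene LPL had a difference of 0.05. Of 18 immediate early and heat shock genes, the phosphatase DUSP1 (2.50-fold) and IER3 (2.40-fold) were lower (11.1%, against 4.24% of all features). Ribosomal protein genes had a median of −0.13 and respiratory chain genes one of −0.19, with −0.11 and −0.17 in controls.

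Some genes were above background on only 1 of the HPD arrays. Of those above background on day 7 alone, 81 exceeded the bound of day 5, and 28 of these were at least 2-fold above it. The largest were the cholecystokinin receptor CCKAR (at least 11.5-fold), SPP2 (at least 10.1-fold), SGSM1 (at least 9.20-fold), DAW1 (at least 9.10-fold) and the lipid transporter ABCA8 (at least 8.85-fold). CCKAR, SPP2 and DAW1 were above background on the HPD day 7 array alone of all 6, so each rests on 1 array. Of those above background on day 5 alone, 224 exceeded the bound of day 7, and 40 of these were at least 2-fold above it. The largest were PDCL2 (at least 14.6-fold), SLC4A9 (at least 11.1-fold), NEK10 (at least 9.40-fold), OLFR651_1 (at least 7.35-fold) and KRT23 (at least 6.45-fold). PDCL2 was above background on the HPD day 5 array alone of all 6. Each bound compares the bright level with the dim array's lowest signal well above background, or with the dim signal itself where that was larger.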
